A study of Mus musculus with 18 samples.

Results

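Npy, Htra3, Fstl3, Rgs12, Wdfy1, Mtus1 and Bcat1 are 7 of the 21003 gene symbols in the deposited table. Their counts differed in opposite or one-sided ways between odd-numbered and even-numbered mice. They are not the only such genes. In an edgeR fit the effect of pH differed between odd and even mice for 17.2% of 11226 genes (adjusted p under 0.05). The 7 genes were taken by symbol from a list that had been drawn up from these same counts. The columns of the odd-numbered mice carry the library indices 701, 705 and 707, and those of the even-numbered mice 702, 706 and 708. The differences between these 6 sets of libraries therefore define the genes, and they are described here without a test. All 7 genes were found and all 7 passed the filters on low counts. Those filters keep a gene that is high in 1 set alone.

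The study asked how a lower pH in culture changes gene expression of haematopoietic stem cells. Each of the 18 libraries was prepared from 100 sorted LT-HSCs (long-term stem cells of the blood system) of the bone marrow of mice aged 8 to 12 weeks, in 3 groups of 6 mice. Cells of the fresh group were not cultured and are labelled pH 7.4, and the other groups were cultured for 48 h at pH 7.4 or at pH 6.9. The medium was IMDM with 10% fetal bovine serum and cytokines at 50 ng/ml, SCF and G-CSF among them, under 3% O2 and 5% CO2. One label field names the mice as B6.SJL and another as c57 B6 WT, and no allele is named that differs between the groups.

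In each group the mice with odd numbers share 1 first index (i7) and those with even numbers another, so group, mouse parity and first index give 6 sets of 3 libraries. Set 701 is fresh odd, 702 fresh even, 707 pH 7.4 odd, 708 pH 7.4 even, 705 pH 6.9 odd and 706 pH 6.9 even. Within a set the index, the parity of the mouse number and any handling that went with them cannot be told apart. The other index (i5) is shared by mice 1 and 2, by 3 and 4, and by 5 and 6, across all groups.

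The libraries stood apart in several ways before any of the 7 genes was considered. Fresh replicate 1 held 6311 counts and 3035 detected genes, fresh replicate 4 held 9408 genes and pH 6.9 replicate 3 held 8925 genes. The other 15 libraries had 1640817 to 7508120 counts and 11225 to 12792 genes, and values by set are given over these 15, in CPM (counts per 1e+06) after TMM scaling. In edgeR fits over 11226 genes, the closest sets did not always share a label. Between 706 and 707 no gene passed an adjusted p of 0.05 (447 had an unadjusted p under 0.05), whereas 1494 genes differed between the 2 pH 6.9 sets, 705 and 706. Sets 707 and 708, both labelled pH 7.4, differed in 358 genes, and the 2 fresh sets, 701 and 702, in 6. Sets 702 and 705, a fresh and a cultured set, differed in 4 genes, and 701 and 708 in 2. These cross comparisons were added after the data had been seen, and whether the labels of some libraries are exchanged was not tested. Group names below are those of the labels.

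**Figure D1:**
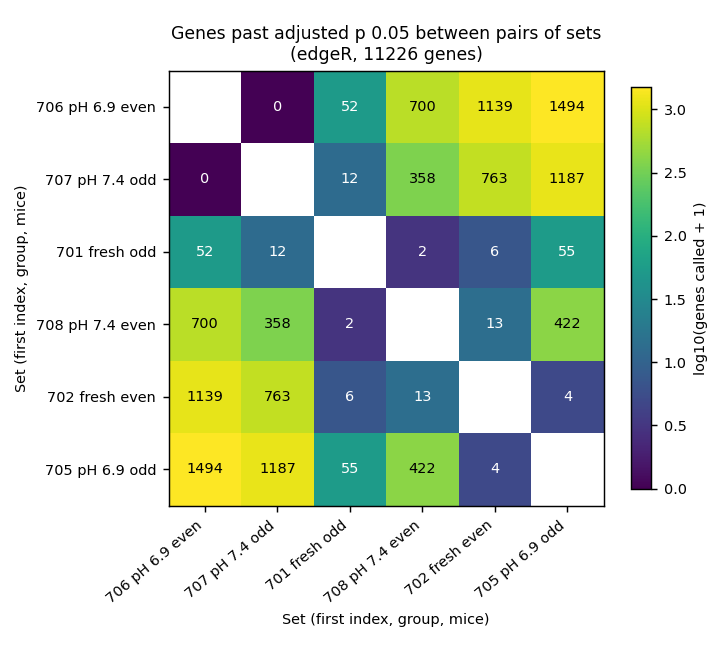
Number of genes past an adjusted p of 0.05 (edgeR, 11226 genes, 15 libraries) for each of the 15 pairs of sets; the colour is log10 of the count plus 1. Sets 706 and 707 differ in 0 genes, 702 and 705 in 4, and 701 and 708 in 2, while 705 and 706 differ in 1494.

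All 16 genes of the long-term stem cell list were detected, but 3 of them, Cd34, Flt3 and Cd48, are low in mouse long-term stem cells. Cd34 was at 662 to 2097 CPM. The other 13 genes summed to 577 to 1950 CPM. Kit, the receptor for stem cell factor, was at 71.0 to 212 CPM and Procr at 4.85 to 51.7 CPM. Genes of neutrophil progenitors summed to 29.5 to 71.3 CPM in 706 and 707 together, against 1621 to 4791 CPM in 708 and 72.3 to 5011 CPM in 701. They summed to 103 to 255 CPM in 702 and to 164 and 165 CPM in 705. In these bulk samples fewer cells of a type and less RNA per cell cannot be told apart.

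The 7 genes belong to several pathways. Npy encodes neuropeptide Y, a secreted peptide that signals through G-protein-coupled Y receptors and is best known from neurons, including sympathetic fibres that reach the bone marrow. HTRA3 is a secreted serine protease of the high-temperature requirement family, and FSTL3 is a secreted follistatin-like glycoprotein that binds and blocks activins. Inside the cell, RGS12 speeds up GTP hydrolysis on G alpha subunits and so ends signals of G-protein-coupled receptors. WDFY1 is an endosomal protein with WD repeats and a FYVE domain that binds a phosphoinositide of early endosomes and takes part in signalling of Toll-like receptors TLR3 and TLR4. MTUS1 is a microtubule-associated protein. BCAT1 is the cytosolic aminotransferase that moves the amino group between branched-chain amino acids and glutamate, an enzyme studied in blood stem cells and leukaemia.

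All 7 are protein-coding in GENCODE M21 on GRCm38 (mm10). Npy (ENSMUSG00000029819) lies at chr6:49822710-49829507 on the plus strand, and Bcat1 (ENSMUSG00000030268) on the same chromosome at chr6:144993835-145076184 on the minus strand. Htra3 (ENSMUSG00000029096) lies at chr5:35652023-35679782 on the minus strand and Rgs12 (ENSMUSG00000029101) at chr5:34949445-35039644 on the plus strand. Fstl3 (ENSMUSG00000020325) lies at chr10:79777272-79782630 on the plus strand, Wdfy1 (ENSMUSG00000073643) at chr1:79702262-79776143 on the minus strand and Mtus1 (ENSMUSG00000045636) at chr8:40990914-41133726 on the minus strand. The kits used do not mark strand, so reads of exons shared with a gene on the opposite strand cannot be told apart. Of the 2445 exonic bases of Fstl3, 1157 are shared with Prss57, which encodes a serine protease of neutrophil granules. Of the 6488 exonic bases of Wdfy1, 126 are shared with Mrpl44, which encodes a mitochondrial ribosomal protein. Antisense genes not in the table share 467 exonic bases with Rgs12, 337 with Bcat1 and 612 and 394 with Mtus1.

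RefSeq promoter windows on GRCm38.p6 were at hand for 5 of the 7 genes. The 250 bases upstream of the start are printed for 4 genes that were high in the same sets (706 and 707) and for Bcat1, which was low in them, so that their base composition can be compared. Each runs 5′ to 3′ on the gene's strand. Capitals mark matches, on either strand, to any of 7 motifs that were searched: CACGTG for an E-box, the palindrome TTCNNNGAA for STAT factors, AGATAA for GATA factors, TGTGGT for RUNX factors, CCGGAAG for ETS factors, the GC box GGGCGG and the TATA box TATAAA. On the other strand a GC box reads CCGCCC and a TATA box reads TTTATA. Matches that overlap each other were counted separately.
Npy, chr6:49822460-49822709, plus strand: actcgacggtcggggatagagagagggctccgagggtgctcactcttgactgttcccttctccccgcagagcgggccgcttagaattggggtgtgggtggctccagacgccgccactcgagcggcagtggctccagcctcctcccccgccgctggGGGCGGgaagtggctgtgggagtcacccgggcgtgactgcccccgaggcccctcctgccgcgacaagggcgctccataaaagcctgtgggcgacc
Htra3, chr5:35679781-35680030, minus strand: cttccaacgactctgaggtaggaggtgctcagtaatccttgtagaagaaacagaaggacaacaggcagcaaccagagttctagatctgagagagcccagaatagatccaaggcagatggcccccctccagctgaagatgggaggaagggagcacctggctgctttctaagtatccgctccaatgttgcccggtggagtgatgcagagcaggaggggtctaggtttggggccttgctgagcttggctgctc
Fstl3, chr10:79777024-79777273, plus strand: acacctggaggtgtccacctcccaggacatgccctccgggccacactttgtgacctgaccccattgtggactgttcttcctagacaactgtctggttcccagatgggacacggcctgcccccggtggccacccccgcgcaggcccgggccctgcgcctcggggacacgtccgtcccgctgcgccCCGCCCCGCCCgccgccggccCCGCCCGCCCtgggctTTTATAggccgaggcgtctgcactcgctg
Rgs12, chr5:34949198-34949447, plus strand: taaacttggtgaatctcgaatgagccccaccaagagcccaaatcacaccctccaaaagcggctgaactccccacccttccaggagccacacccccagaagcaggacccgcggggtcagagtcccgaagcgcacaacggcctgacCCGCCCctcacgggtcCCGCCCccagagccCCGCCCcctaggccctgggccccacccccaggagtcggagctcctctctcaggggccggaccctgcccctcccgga
Bcat1, chr6:145076158-145076407, minus strand: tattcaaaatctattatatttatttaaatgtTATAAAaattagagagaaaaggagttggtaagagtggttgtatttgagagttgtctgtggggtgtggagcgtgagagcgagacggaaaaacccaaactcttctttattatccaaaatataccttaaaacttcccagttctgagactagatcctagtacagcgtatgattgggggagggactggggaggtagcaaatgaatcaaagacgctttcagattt

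The windows of the 4 genes that were high in the same sets were not alike. Npy held 1 GC box, Rgs12 held 3 and Fstl3 held 4 with 1 TATA box, at GC contents of 69.2%, 68.4% and 71.2%. Htra3 had no match to any of the 7 motifs and a GC content of 54.8%. The Bcat1 window had a GC content of 37.6%, 1 TATA box and no GC box. Rgs12 and Bcat1 each have another annotated start, whose windows had GC contents of 55.6% and 56.4%. Among all 32851 promoter windows of the same length the median GC content was 52.4%. The GC box was in 32.7% of them and the TATA box in 12.4%. The other motifs were in 6.02% (CACGTG), 7.02% (TTCNNNGAA), 9.99% (AGATAA), 14.0% (TGTGGT) and 6.91% (CCGGAAG), and had no match in the windows of these 5 genes. A match is a run of letters and not a bound site, and no match says nothing of the factor.

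The secreted factors Npy, Htra3 and Fstl3 were high in 706 and 707 and low in the other 4 sets. With the labels as given, they were lower at pH 6.9 than at pH 7.4 in odd-numbered mice and higher at pH 6.9 than at pH 7.4 in even-numbered mice.

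Npy was at 19.6, 20.7 and 43.8 CPM in the 3 libraries of 707 (mean 28.1 ± 13.7, SD, n = 3) and at 26.6, 22.0 and 14.6 CPM in 706 (mean 21.1 ± 6.09, SD, n = 3). In 708 it was at 1.82, 0.195 and 1.29 CPM, in 702 at 1.60 and 0.630 CPM and in 701 at 0.473 and 0.267 CPM. Both libraries of 705 were at 0. Every library of 706 and 707 lay above every library of the other sets. The level in 706 was 19.1-fold that in 708, the other group of even-numbered mice, a log2 fold change of 4.24 ± 0.68 (SE). In odd-numbered mice the level in 707 was at least 74.7-fold that in 705, taking 3 counts over the set as the most that a count of 0 allows. The left-out pH 6.9 replicate 3 of set 705 held 2 Npy counts. Against fresh odd libraries, which held 3 counts, the ratio of 706 was 50.6 (exact 95% counting interval 17.1 to 248). Such intervals and floors cover counting error only.

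Htra3 was at 106, 143 and 89.3 CPM in 707 (113 ± 27.3, SD, n = 3) and at 138, 100.2 and 144 CPM in 706 (127 ± 23.8, SD, n = 3). The other sets ran from 3.48 to 33.6 CPM, both of them libraries of 705 (pH 6.9 replicate 5 and replicate 1). Set 701 had 17.0 and 22.2 CPM, 702 had 7.98 and 16.4 CPM, and 708 had 11.5, 6.03 and 4.37 CPM. Again no library of 706 or 707 fell within the range of the others. The log2 fold change of pH 6.9 against pH 7.4 was -2.81 ± 0.70 (SE) in odd-numbered mice and 4.16 ± 0.61 in even-numbered mice. The value in odd-numbered mice was -5.00 without pH 6.9 replicate 1 and -1.75 without pH 6.9 replicate 5, so its size rested on which of the 2 libraries of 705 was kept.

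Fstl3 had a narrow spread inside the high sets. It was at 20.6, 18.6 and 19.9 CPM in 707 (19.7 ± 1.01, SD, n = 3) and at 15.97, 17.7 and 18.9 CPM in 706 (17.5 ± 1.49, SD, n = 3). In the other sets it reached 2.14 CPM at most: 0.709 and 2.14 CPM in 701, 0 and 0.945 CPM in 702, 1.04, 0.584 and 0.809 CPM in 708, and 0 in both libraries of 705. The level in 707 was at least 56.3-fold that in 705, and 706 against 708 gave a log2 fold change of 4.40 ± 0.71 (SE). Prss57, which shares exonic bases with Fstl3, was not high in these sets: it was at 0 to 5.78 CPM in 707 and 0.305 to 4.14 CPM in 706, against 10.4 to 20.5 CPM in 708 and 2.84 to 23.2 CPM in 701.

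The order of the 6 sets was close for these 3 genes. For each, 706 and 707 led and overlapped in range, followed by a gap to the next set. Below the gap, the ranges of neighbouring sets overlapped, except that both Npy libraries of 705 lay below those of 701. The log2 fold change of 706 against 707 was -0.42 ± 0.57 (SE) for Npy, 0.17 ± 0.52 for Htra3 and -0.16 ± 0.59 for Fstl3. These differences, between sets whose labels differ in pH, were smaller than their standard errors.

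**Figure D2:**
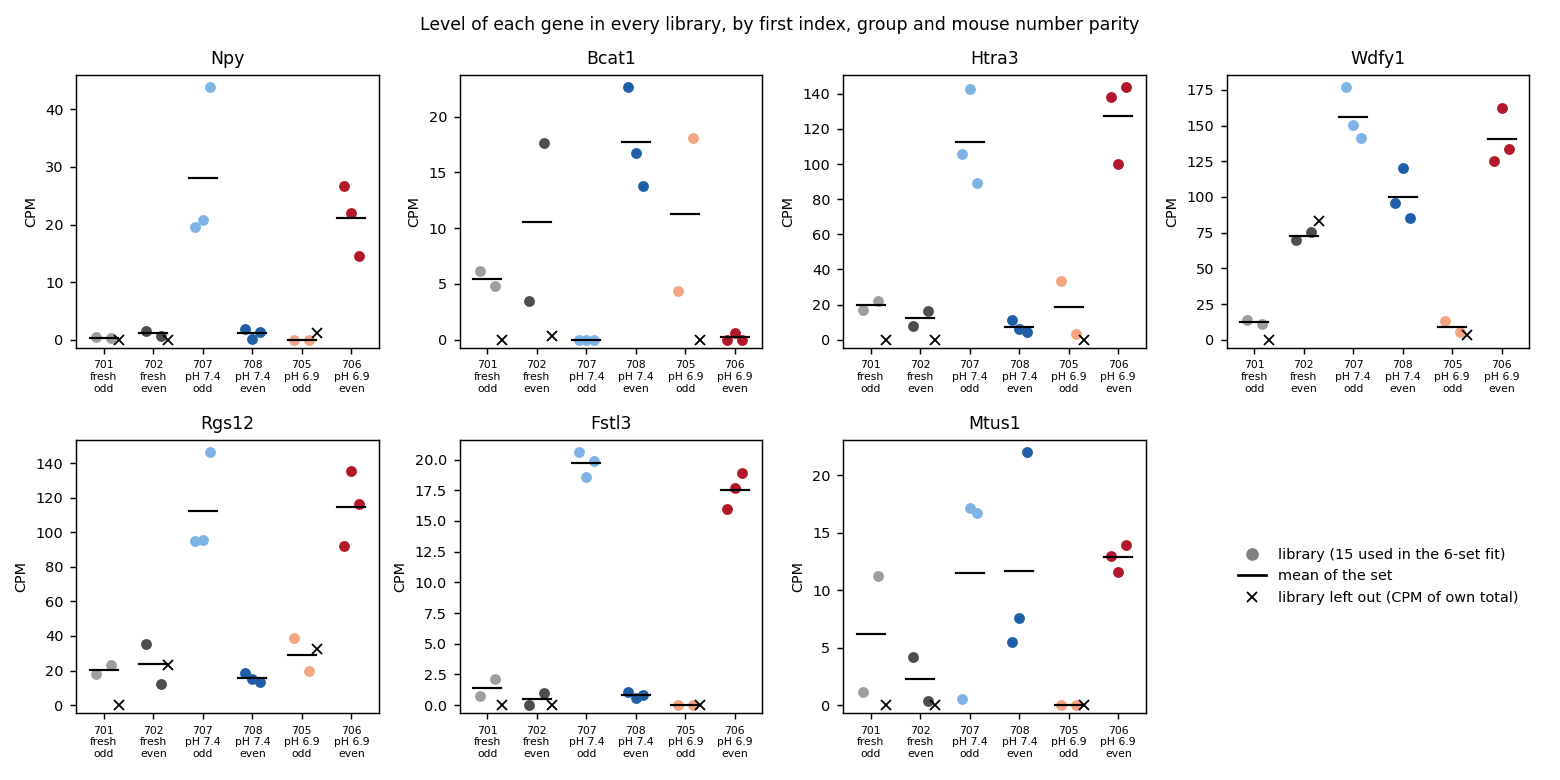
CPM of each of the 7 genes in every library (points), by set (first index, group and mouse parity), with the mean of each set as a line; crosses are the 3 libraries left out of the set fits, as CPM of their own totals. Npy, Htra3, Fstl3 and Rgs12 stand high in 706 and 707, Bcat1 is at or near 0 there, and Wdfy1 is low in 701 and 705.

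Rgs12, the regulator of G-protein signalling, followed the same sets. It was at 95.1, 95.6 and 146 CPM in 707 (112 ± 29.4, SD, n = 3) and at 92.3, 136 and 117 CPM in 706 (115 ± 21.7, SD, n = 3). The other sets had 38.6 and 19.5 CPM (705), 35.4 and 12.3 CPM (702), 18.2 and 23.0 CPM (701), and 18.7, 15.2 and 13.6 CPM (708). Unlike Npy and Fstl3, Rgs12 was counted in all 15 libraries. The log2 fold change of pH 6.9 against pH 7.4 was -1.999 ± 0.41 (SE) in odd-numbered mice and 2.87 ± 0.36 in even-numbered mice. Without pH 6.9 replicate 1 the value in odd-numbered mice was -2.51, and without pH 6.9 replicate 5 it was -1.54. Between 706 and 707 the log2 fold change was 0.04 ± 0.33 (SE).

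Wdfy1, the endosomal FYVE protein, split the sets in another way. It was at 177, 151 and 141 CPM in 707 (156 ± 18.4, SD, n = 3), 125, 162 and 133 CPM in 706 (140.4 ± 19.5, SD, n = 3) and 95.5, 120.0 and 84.9 CPM in 708 (100.2 ± 18.01, SD, n = 3). Fresh even libraries (702) had 70.2 and 75.2 CPM. Fresh odd libraries (701) had 13.7 and 10.9 CPM and pH 6.9 odd libraries (705) had 13.1 and 5.30 CPM. The 2 low sets, 701 and 705, lay apart from the other 4 and overlapped each other. Of the libraries left out, fresh replicate 4 (set 702) had 238 counts, 83.4 CPM of its own total, and pH 6.9 replicate 3 (set 705) had 6 counts, 3.35 CPM.

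By label, Wdfy1 was lower at pH 6.9 than at pH 7.4 in odd-numbered mice, by a log2 fold change of -4.28 ± 0.35 (SE), and by -4.86 and -3.58 without pH 6.9 replicate 1 or 5. In even-numbered mice the value was 0.49 ± 0.24. Among fresh cells the odd-numbered mice were below the even-numbered ones by -2.56 ± 0.33, and in this comparison 6 of 11226 genes passed the test. Wdfy1 also differed between 702 and 705 and between 701 and 708, where few genes were called. Few calls do not by themselves make these sets alike. Of 11226 genes, 785 (702 against 705) and 309 (701 against 708) had an unadjusted edgeR p under 0.05. As a share of genes, the 309 lie below the 0.05 that chance alone gives, so they are no sign of a difference. The log2 fold change of 702 against 705 was 3.17 ± 0.36 (SE), with the level in 702 7.91-fold that in 705, and that of 701 against 708 was -3.02 ± 0.32. Without pH 6.9 replicate 1 the value of 702 against 705 was 3.79, and without replicate 5 it was 2.47. The counts of called genes include Wdfy1 in both, with 4 genes in the first of these comparisons (0.0356% of genes) and 2 in the other (0.0178%). Both set odd-numbered against even-numbered mice, as the choice of the genes did, so these calls are no test of Wdfy1. The genes passing beside it were Ccnb2, Cep72 and Entpd4 between 702 and 705, and Rps4l between 701 and 708. With all 18 libraries, 2 genes passed between 702 and 705 and 0 between 701 and 708, where 78 had an unadjusted p under 0.05. Without pH 6.9 replicate 5, 43 genes passed between 702 and 705, and without fresh replicate 2, 1 gene did. Since Wdfy1 was chosen on these libraries, its place among these genes is a description.

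Mtus1, the microtubule-associated protein, was one-sided and more scattered. It was at 0 in both libraries of 705 and in the left-out library of that set. The 3 libraries of 706 were close, at 13.01, 11.6 and 14.0 CPM (12.9 ± 1.19, SD, n = 3). In 707 it was at 0.490, 17.2 and 16.7 CPM (11.5 ± 9.52, SD, n = 3), the low value being pH 7.4 replicate 1. In 708 it was at 5.47, 7.59 and 22.0 CPM (11.7 ± 8.9996, SD, n = 3), in 701 at 1.18 and 11.2 CPM and in 702 at 4.15 and 0.315 CPM. Sets 706, 707, 708 and 701 overlapped their neighbours in the order of means, and only 705 lay below all other libraries. By counts summed over the set, 707 was at least 41.5-fold, and 706 at least 38.1-fold, over 705. Of the 165 counts of 707, pH 7.4 replicate 3 held 122 and replicate 1 held 1, so the bound does not hold for each library. In even-numbered mice the log2 fold change of pH 6.9 against pH 7.4 was 0.13 ± 0.93 (SE), with overlapping ranges.

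Bcat1, the cytosolic branched-chain aminotransferase, was low where Npy was high. It was at 0 in all 3 libraries of 707. In 706 it was at 0.611 CPM (2 counts) in pH 6.9 replicate 4 and at 0 in the other libraries. In 708 it was at 22.6, 16.7 and 13.8 CPM (17.7 ± 4.52, SD, n = 3), in 705 at 4.36 and 18.1 CPM, in 702 at 3.51 and 17.6 CPM, and in 701 at 6.14 and 4.80 CPM. Every library of these 4 sets lay above every library of 706 and 707, and the 4 sets overlapped their neighbours in order. By counts summed over the set, 708 was at least 66.0-fold, and 705 at least 60.6-fold, over 707. Against the 2 counts of 706, the ratio of 708 was 84.9 (exact 95% counting interval 23.3 to 705) and that of 705 was 77.8 (21.1 to 649). The values of 705 rest mainly on 1 library: pH 6.9 replicate 5 held 130 of its 137 counts and was at least 70.3-fold over 707, and replicate 1, with 7 counts, at least 16.93-fold. By label, Bcat1 was thus higher at pH 6.9 in odd-numbered mice and lower at pH 6.9 in even-numbered mice. Of the libraries left out, fresh replicate 4 held 1 Bcat1 count and pH 6.9 replicate 3 held 0. Fresh replicate 1 held 0 counts of each of the 7 genes, but 3 counts in its 6311 would correspond to 475 CPM.

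Counted over the 7 genes, the libraries of 705 and 707 did not overlap for any of the 7, and those of 706 and 708 for 6, Mtus1 being the exception. Ranges of the same sets lay apart for 37.8% and 31.0% of all genes. Of all 11226 genes, 4.93% were called higher and 5.64% lower at pH 6.9 in odd-numbered mice, and 2.68% higher and 3.55% lower in even-numbered mice. The number called in odd-numbered mice was 1187, and 785 once the mouse number entered the fit as a block. Between odd and even sets, 0.0534% of genes were called for the fresh group, 3.19% for pH 7.4 and 13.3% for pH 6.9, and the effect of pH differed between odd and even mice for 17.2%. These shares are the background for the 7 genes, and nothing is read from the comparison, because the 7 were picked on these contrasts. With all 18 libraries the number called in even-numbered mice was 0 (583 with an unadjusted p under 0.05) and among odd-numbered mice 58.

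In the comparison the study was designed for, pH 6.9 against pH 7.4 over all mice, no group of libraries stood apart for any of the 7 genes. Over the 6 mice of each group, Npy was at 0 to 26.1 CPM at pH 6.9 (median 7.90) and at 0.190 to 43.6 CPM at pH 7.4 (median 10.4). Fstl3 was at 0 to 18.3 CPM at pH 6.9 and 0.571 to 20.03 CPM at pH 7.4, and Htra3 at 0 to 139 CPM and 4.28 to 142 CPM. The ranges of the groups overlapped for each of the 7. In the edgeR fit of the 3 groups over 18 libraries and 10104 genes, log2 fold changes of pH 6.9 against pH 7.4 ran from -1.10 ± 1.25 (SE) for Bcat1 to 0.23 ± 0.57 for Rgs12. The edgeR adjusted p was 0.997 for each of the 7. Changes that are opposite in odd and even mice, for which genes were picked, partly cancel in a pooled value and widen its spread. The lack of calls among the 7 therefore follows in part from their choice, and nothing is read from it. In this comparison 0% of all genes were called by edgeR (254 had an unadjusted p under 0.05), and DESeq2 called 4. The value for Fstl3, -0.20 ± 1.11, was 0.67 with the mouse number as a block, and also not called.

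Between cultured and fresh cells none of the 7 genes was called either. In cells cultured at pH 7.4 against fresh cells, the log2 fold change was 4.46 ± 1.41 (SE) for Npy (edgeR adjusted p = 0.879), 3.58 ± 1.38 for Fstl3, 2.22 ± 1.07 for Htra3 and 1.35 ± 0.61 for Rgs12. It was 1.74 ± 1.15 for Mtus1, 1.10 ± 0.76 for Wdfy1 and 0.44 ± 1.29 for Bcat1. In cells cultured at pH 6.9 it was 4.04 ± 1.39 for Npy, 3.38 ± 1.37 for Fstl3, 2.43 ± 1.08 for Htra3 and 1.58 ± 0.62 for Rgs12. It was 0.90 ± 1.14 for Mtus1, 0.30 ± 0.75 for Wdfy1 and -0.67 ± 1.30 for Bcat1. Of the 7 genes, 3 had an unadjusted p under 0.05 in the first comparison and 4 in the other, and none passed the adjusted threshold. Both comparisons use the same fresh libraries. Of all genes, 381 and 229 had an unadjusted p under 0.05, and the called share was 0% in both. A gene chosen for being high in 1 of the 2 sets of a cultured group also moves these pooled values.

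The second index, which the choice of genes did not use, gave no call. Adding it to the 6 sets as a term of 2 coefficients, edgeR's quasi-likelihood test gave the 7 genes p values of 0.212 (Wdfy1) to 0.608 (Fstl3), and adjusted p values of 0.883 to 0.970. Genes picked for differences between sets tend to have little spread left within them, which limits what this term can pick up. The lack of calls among the 7 is thus not free of their choice, and nothing is read from it. None of the 11226 genes (0%) was called for this term, 768 had an unadjusted p under 0.05, and DESeq2 called 81.

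The share of the variance of log2 CPM that lay between the 6 sets was 97.2% for both Wdfy1 and Fstl3, 95.9% for Npy, 92.4% for Bcat1, 91.2% for Rgs12, 86.9% for Htra3 and 63.3% for Mtus1. The median over all genes was 49.0%. This is a description of the choice of the genes. Mtus1, with its wide spread inside 707 and 708, was closest to the median.

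Genes with a pattern most like each of the 7 were ranked by the mean absolute difference of centred log2 CPM over the 15 libraries, among 9399 genes, with smaller values meaning more alike. Fstl3 was the gene most like Npy, at 0.60 against a median of 2.16 over all genes. Tle2, a Groucho-family transcriptional corepressor, was the one most like Fstl3 at 0.59. Tle2 had mean levels of 11.4 CPM in 706 and 15.5 CPM in 707 and at most 0.692 CPM in the other sets. Itgae, the integrin subunit CD103, was next to Npy at 0.81, with 88.6 CPM in 706, 50.8 CPM in 707 and 2.81 to 8.75 CPM elsewhere, but was not among the 3 with a prior count of 0.5 in place of 2. Htra3 was most like Chad (0.64), a cartilage matrix protein with leucine-rich repeats, Msantd1 (0.64) and Id3 (0.67), an inhibitor of basic helix-loop-helix factors. Chad had means of 1526 CPM in 706 and 1120 CPM in 707, against 125 to 294 CPM elsewhere.

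Rgs12 had the smallest distances of the 7 to its companions, but its median distance over all genes was also the smallest of the 7. Ypel3 was at 0.36, Rgs1 at 0.42 and 2900026A02Rik at 0.42, against a median of 1.23. Ypel3 had means of 437 CPM in 706 and 346 CPM in 707, and 62.3 to 107 CPM in the other sets. Bcat1 was most like Fabp5 (1.07), a fatty acid binding protein, Rab3il1 (1.09) and Tst (1.09), a mitochondrial thiosulfate sulfurtransferase. Fabp5 was at 21.1 and 21.2 CPM in 706 and 707 and at 81.5 to 130.5 CPM in the other sets, and it too dropped out with a prior count of 0.5. Mtus1 was most like Mgst1 (0.84), a microsomal glutathione transferase, Dok3 (0.93) and Plac8 (0.95), and only 1 of these was still among the 3 with a prior count of 0.5.

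Wdfy1 was most like Rps4l (0.67), a ribosomal protein S4-like gene, Natd1 (0.76) and Efcab7 (0.77). Rps4l was at 4.96 and 5.07 CPM in 701 and at 28.3 to 56.2 CPM in all libraries of 702, 706, 707 and 708. In 705 it was at 12.5 and 29.3 CPM, the higher being pH 6.9 replicate 5, so that it shared the low level of Wdfy1 in 701 and only in part in 705. Among the 7 genes themselves, Bcat1 was least like the others, at 2.89 to 4.17. The distance between Htra3 and Rgs12 was 0.75.

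**Figure D3:**
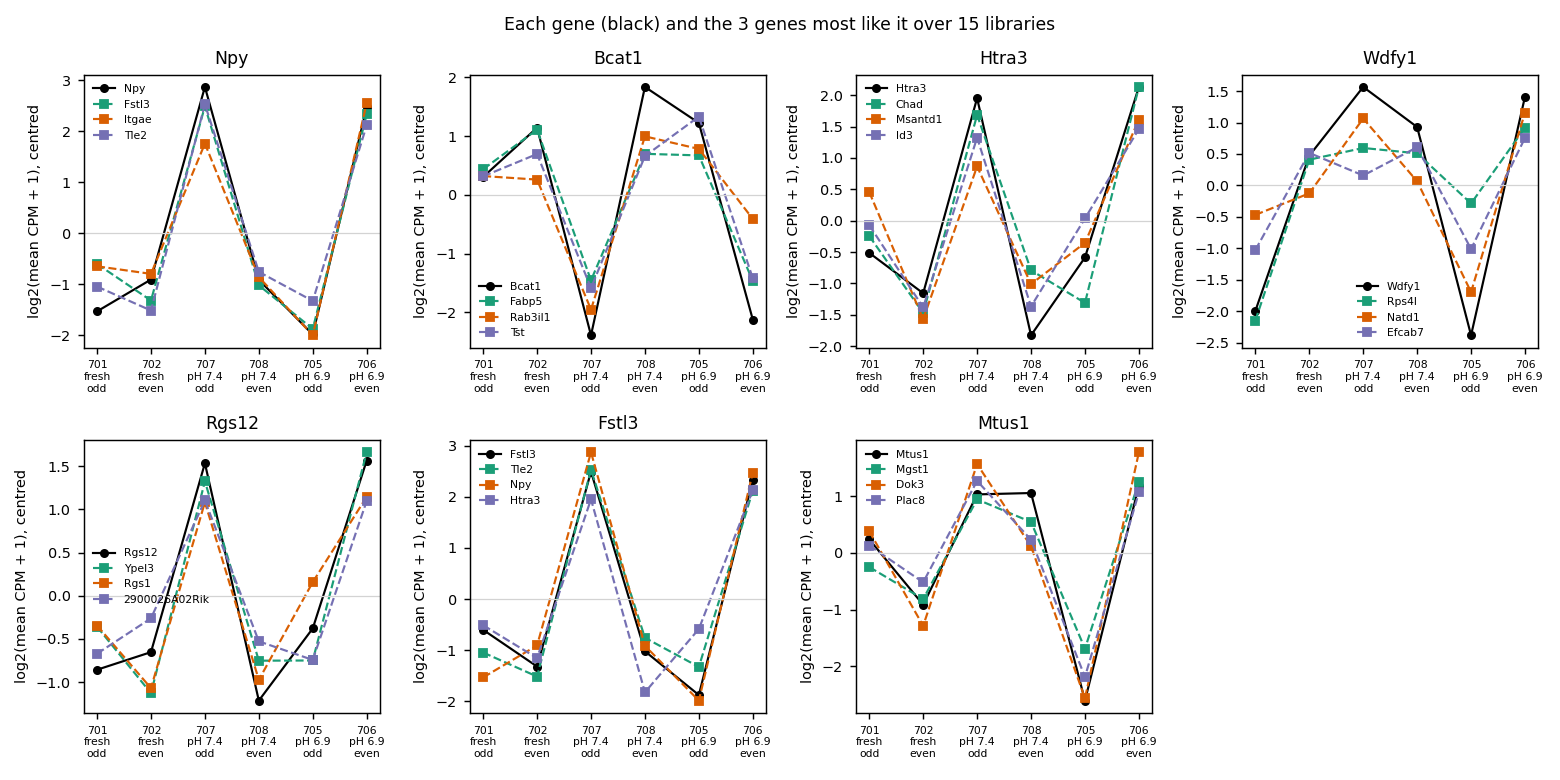
Set means of each of the 7 genes (black) and of the 3 genes most like it (colours), as log2 of mean CPM plus 1, centred on the mean of the 6 sets. Npy with Fstl3 and Tle2, and Rgs12 with Ypel3 and Rgs1, rise together in 706 and 707, and Wdfy1 and Rps4l are both low in 701.

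The families and pathways of the 7 genes were then counted in the comparison of pH 6.9 with pH 7.4, separately in odd and even mice. The lists were written with earlier results of these data known. Where 1 of the 7 genes is counted as called, that is no test of it, since the 7 were picked on these contrasts. Over all 11226 genes the median log2 fold change was -0.08 for odd-numbered mice and 0.07 for even-numbered ones. Of the RGS and G alpha list, 22 of 35 genes were measured in the fit. In odd-numbered mice 8 of the 22 were lower and 0 higher at pH 6.9 (list median -0.62), and in even-numbered mice 5 were higher and 0 lower (list median 0.44). The 8 were Rgs12, Rgs10, Rgs2, Rgs1, Gpsm2, Gna12, Gnai2 and Gnai3. Of the 20 alternatives tried, Gnai2 and Gnai3 each lost this call in 17, Rgs1 in 12, and Gpsm2 and Gna12 each in 6. Over all genes 10.6% were called in odd-numbered mice and 6.24% in even-numbered mice, in either direction. Rgs12 itself is in both counts, and without it they were 7 of 21 and 4 of 21. The 4 were Rgs1, Rgs2, Rgs10 and Gnas, the last of which lost its call in 14 of the 20 alternatives.

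Rgs1, Rgs2 and Rgs10, each a regulator that speeds up GTP hydrolysis on G alpha subunits as Rgs12 does, were high in the same sets. Rgs2 was at 319, 564 and 371 CPM in 707 and at 629, 544 and 486 CPM in 706. In every other library it was at 41.6 to 149.6 CPM. In even-numbered mice it rose by a log2 fold change of 2.46 ± 0.38 (SE, edgeR adjusted p = 0.00253). In odd-numbered mice it fell, at -1.98 ± 0.44 (edgeR adjusted p = 0.0120), a call that was lost without pH 6.9 replicate 1 (adjusted p = 0.0503) or replicate 5 (0.113).

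Rgs1 was at 274 to 404 CPM in 706 and 707, and at 46.91 to 204 CPM in the other libraries. It rose in even-numbered mice by 2.14 ± 0.26 (SE, edgeR adjusted p = 0.000471). Rgs10 was at 51.6 to 183 CPM in 706 and 707 and at 15.6 to 29.4 CPM elsewhere. It fell in odd-numbered mice by 2.43 on the log2 scale (SE 0.43, edgeR adjusted p = 0.00261) and rose in even-numbered mice by 1.81 ± 0.36 (adjusted p = 0.00627). With all 18 libraries none of these RGS calls remained: the adjusted p was 0.161 for Rgs1 in even-numbered mice, 0.317 (even) and 0.219 (odd) for Rgs2, and 0.706 (even) and 0.238 (odd) for Rgs10.

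**Figure D4:**
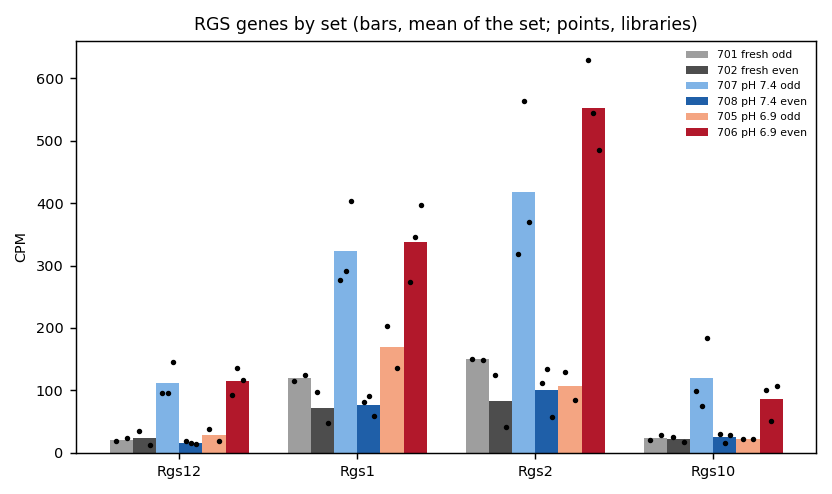
CPM of Rgs12, Rgs1, Rgs2 and Rgs10 by set, with bars for the mean of the set and points for the 15 libraries. For all 4 genes the bars of 706 and 707 are the highest of the 6, and the fresh sets lie with 705 and 708.

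In the list of activin and TGF-beta signalling with follistatins, 23 of 37 genes were measured. At pH 6.9, 2 were lower and 0 higher in odd-numbered mice (list median -0.57), and 5 were higher and 0 lower in even-numbered mice (list median 0.88). Fstl3 and Skil make up the first count and Fstl3, Skil, Ltbp3, Smad7 and Ski the other. Without Fstl3, which was chosen on these contrasts, the counts were 1 and 4 of 22, with list medians of -0.57 and 0.68. Over all genes 10.6% were called in odd-numbered mice and 6.24% in even-numbered mice, in either direction. The calls of Ltbp3, Smad7 and Ski were lost in 7, 16 and 6 of the 20 alternatives tried, leave-outs of single libraries among them. Skil, the SKI-like corepressor of SMAD proteins, had set means of 150 CPM in 706 and 140.3 CPM in 707, 44.3 CPM in 705 and 48.3 CPM in 708. It fell in odd-numbered mice by 1.73 on the log2 scale (SE 0.46, edgeR adjusted p = 0.0247) and rose in even-numbered mice by 1.65 ± 0.39 (adjusted p = 0.0199). The first call was lost without pH 7.4 replicate 3 (0.0607) or pH 6.9 replicate 5 (0.196), and the other without pH 7.4 replicate 6 (0.105) or pH 6.9 replicate 6 (0.0991). Both were lost with all 18 libraries (0.900 and 0.861). The log2 fold change in odd-numbered mice was -2.67 without pH 6.9 replicate 1 and -1.08 without replicate 5.

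Of the 15 genes of the neuropeptide Y system only 4 were measured and 8 had no count in any library. Dpp4, a peptidase that trims neuropeptide Y, was at a mean of 7.78 CPM in 705 against 38.9 CPM in 707. It fell at pH 6.9 in odd-numbered mice by 2.26 on the log2 scale (SE 0.49, edgeR adjusted p = 0.00748; 0.0668 without pH 6.9 replicate 1 and 0.0493 with all 18 libraries). No other gene of the list apart from Npy was called. The list medians, of 4 genes, were -0.91 for odd-numbered mice and 1.96 for even-numbered ones. Without Npy, which was chosen on this contrast, they were 0.44 and 1.10, so the sign in odd-numbered mice turned.

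All 31 genes of branched-chain amino acid metabolism were measured. In odd-numbered mice 3 were higher and 2 lower at pH 6.9 (list median -0.15), and in even-numbered mice 0 were higher and 2 lower (list median -0.16). That is 5 and 2 of 31, beside 10.6% and 6.24% of all genes. The first 3 were Bcat1, Hsd17b10 and Bckdhb, the 2 lower ones Aldh6a1 and Bckdha, and those lower in even-numbered mice Bcat1 and Dld. Without Bcat1, which was chosen on these contrasts, 2 of 30 were higher and 2 lower in odd-numbered mice. In even-numbered mice 0 of these 30 were higher and 1 was lower. The calls of Bckdhb and Dld were each lost in 7 of the 20 alternatives, and that of Bckdha without pH 6.9 replicate 1 (0.0785), without replicate 5 (0.152) and with all 18 libraries (0.185). Hsd17b10, the mitochondrial dehydrogenase of isoleucine breakdown, was at a mean of 679 CPM in 705 and 474 CPM in 702, and at 190.0 to 232 CPM in the other sets. It rose in odd-numbered mice by 1.81 ± 0.23 (SE, edgeR adjusted p = 0.000365; 0.0260 with all 18 libraries). Aldh6a1, the methylmalonate-semialdehyde dehydrogenase of valine breakdown, fell in odd-numbered mice by 1.69 on the log2 scale (SE 0.39, edgeR adjusted p = 0.0117), and this call was lost without pH 6.9 replicate 1 (0.101) and with all 18 libraries (0.175).

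The remaining lists are counted beside the same shares of all genes, 10.6% for odd-numbered mice and 6.24% for even-numbered ones. Of the WDFY1, early endosome and TLR3/TLR4 list, 24 of 26 genes were measured, with 2 lower in odd-numbered mice (Wdfy1 and Pik3c3) and none called in even-numbered mice. Without Wdfy1, which was chosen on these contrasts, 1 of 23 was lower in odd-numbered mice. Pik3c3, the kinase that makes the endosomal phosphoinositide which FYVE domains bind, was at a mean of 23.5 CPM in 705 and 74.0 CPM in 707. It fell by 1.60 on the log2 scale (SE 0.30, edgeR adjusted p = 0.00332; 0.106 with all 18 libraries). Its log2 fold change was -1.26 without pH 6.9 replicate 1 and -2.19 without replicate 5. Of the MTUS1 and microtubule plus-end list, 20 of 24 genes were measured, with 3 lower in odd-numbered mice (Mtus1, Kif18b and Tacc3) and none called in even-numbered mice. Without Mtus1, also chosen on these contrasts, 2 of 19 were lower in odd-numbered mice. The call of Tacc3 was lost in 8 of the 20 alternatives. Kif18b, a kinesin of microtubule plus ends, fell by 3.62 on the log2 scale (SE 0.88, edgeR adjusted p = 0.0150; 0.150 without pH 6.9 replicate 5 and 0.221 with all 18 libraries). Its log2 fold change was -6.11 without pH 6.9 replicate 1 and -2.10 without replicate 5. Of the 4 HTRA proteases 3 were measured, with list medians of -2.81 in odd-numbered mice and 0.94 in even-numbered mice. Without Htra3, also chosen on these contrasts, 0 of 2 were called in odd-numbered mice and 1 was lower in even-numbered mice. That 1 was Htra2, the mitochondrial member, at 45.1 CPM in 706 and 98.1 CPM in 708, opposite in direction to Htra3. The third measured gene was not called, and its log2 fold change in even-numbered mice, the list median, had the sign of Htra3. The call of Htra2 in even-numbered mice (log2 fold change -1.13 ± 0.27, SE, edgeR adjusted p = 0.0175) was lost without pH 7.4 replicate 6 (0.0867), pH 6.9 replicate 4 (0.0720) or pH 6.9 replicate 6 (0.0859), and with all 18 libraries (0.871).

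Some marker lists differed between 706 and 707 and the other 4 sets, and others did not. The ranges of 706 and 707 overlapped those of other sets for the monocyte, erythroid, B cell, megakaryocyte and mast cell lists. Over the 15 libraries the monocyte list summed to 124 to 274 CPM and the B cell list to 20.7 to 81.7 CPM. The T and NK cell list was at 7.02 to 23.0 CPM in 706 and 707 and at 20.8 to 135 CPM elsewhere. The long-term stem cell list summed to 2850 to 3982 CPM in 706 and 2968 to 3868 CPM in 707, above the 1657 to 2440.2 CPM of the other 4 sets. Without Cd34, Flt3 and Cd48 it summed to 1537 to 1950 CPM in 706 and 1373 to 1818 CPM in 707, which overlapped the 1283 to 1680 CPM of 705 and lay above the 577 to 1194 CPM of 701, 702 and 708. The neutrophil list of 9 genes was lowest in 706 and 707, where Elane was at 0 to 2.44 CPM and at 0. Mpo, the granule enzyme of neutrophil progenitors, was at 1042 to 3195 CPM in 708 and 1.18 to 10.1 CPM in 706. Within 701 it was at 4.02 CPM in 1 library and 3110 CPM in the other, while Npy, Htra3, Fstl3 and Rgs12 were low in both. In 705 the list summed to no more than 165 CPM, and these 4 genes were low there as well. The stroma and endothelium list, carried almost wholly by Pecam1, summed to 212 to 359 CPM in 706 and 707 and 57.8 to 161 CPM elsewhere. Cd48, which was entered in the stem cell list as a gene that is low there and marks progenitors beyond it, went the other way from that list's sum. It was at 0 to 7.02 CPM in 706 and 707 and at 65.2 to 159 CPM in 708. The part of these differences in the levels of the 7 genes was not tested.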

How the data were processed

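The tool was kallisto and the build mm10, per the submitters' processing notes. The version, and how transcripts were summed to genes, were not given in the sources used here. Values deposited by the authors are estimated counts per gene symbol (expected counts), all of them whole numbers, used as deposited. Libraries were made with SMART-Seq v4 and Nextera XT and read as paired ends of 75 bp, per the labels' protocols. Nothing says that strand or molecular identifiers were kept.

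Of 21003 symbols, 15842 had a count. Genes were filtered with filterByExpr, scaled by TMM and fitted with the robust quasi-likelihood method of edgeR 4.0.16 (R 4.3.3), with Benjamini-Hochberg adjustment and a threshold of 0.05. One fit had 3 groups over 18 libraries (10104 genes), and the other had 6 sets over the 15 libraries with at least 1e+05 counts and 10000 detected genes (11226 genes). DESeq2 1.42.0 was an alternative. Some sets then hold 2 libraries, and leaving out 1 assumes that the lone library varies like the others. The edgeR fits were tested on simulated data for pH over 6 mice, pH in even-numbered mice and the second index. Levels are counts per 1e+06. A set at 0 was given a floor of 3 counts. Bounds from this floor, and ratios with a counting interval, use counts summed over each set, so deeper libraries weigh more in them.

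The members and gene lists were chosen with earlier results of these data known, so no list supports another result. The pathway lists had 172 entries, 171 matched by symbol and 1 by an older symbol, and the marker lists had 63 entries, 61 matched. The text names the 7 genes, the 3 genes most like each, and called list genes with a set mean of at least 10 CPM. Likeness was the mean absolute difference of centred log2 CPM, with a prior count of 2. It was taken among genes with a mean of at least 5 CPM over the 15 libraries. Further called genes are named where a count is small, after their values were seen. The genes passing between 702 and 705 and between 701 and 708 were chosen after their values were seen.

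The design text speaks of 6 individual mice, so equal replicate numbers were taken as 1 animal. Deviations from group means of same-numbered libraries correlated at -0.222 to 0.241 (median -0.0973) over 12 pairs. Nothing says that the mice were handled separately, so p values measure the spread between these libraries.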

Additional observations from a re-analysis of the deposited data

Results flagged for a closer look

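In groups of 6 libraries, Dixon's test picked out a single high library in 3 cases. The test was run for 7 genes in 3 groups. Chance gives such a case in about 1 of 20 groups if all 6 values come from 1 normal distribution. Each group here mixes 2 sets, and the fresh group holds replicate 1 with 6311 counts, so the 3 cases cannot be set against that rate. Bcat1 was at 17.6 CPM in fresh replicate 6 and at 17.8 CPM in pH 6.9 replicate 5, each far above the other 5 libraries of its group. Mtus1 was at 11.1 CPM in fresh replicate 5. These values are on the scale of all 18 libraries.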

How the results depend on the processing

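With DESeq2, pH 6.9 against pH 7.4 over 6 mice gave 4 genes, the odd against even sets gave 50 (fresh) and 788 (pH 7.4), pH in even-numbered mice gave 1068, and the second index gave 81. Sets 706 and 707 then differed in 2 genes, 702 and 705 in 38, and 701 and 708 in 11. Without the filter the odd against even sets gave 161 (fresh) and 792 (pH 7.4), the second index 39, 706 against 707 6, 702 against 705 162 and 701 against 708 47. With all 18 libraries the odd against even sets gave 0 (fresh), 0 (pH 7.4) and 116 (pH 6.9), pH gave 58 (odd-numbered mice) and 0 (even-numbered mice), and its difference between them 159; 702 against 705 gave 2 and 701 against 708 0. Unadjusted p was under 0.05 for 912 (fresh), 493 (pH 7.4), 583 (even-numbered mice) and 78 (701 against 708) of these. With the mouse number as a replicate block, pH in odd-numbered mice gave 785, and the pooled value of Fstl3 was 0.67; it was 0.046 with 15 libraries. The block could not be fitted for odd against even sets, since each mouse lies in 1 parity. The cause of these moves was not tested.

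Leaving out 1 library at a time gave 0 to 1 genes for pH over 6 mice (1 without pH 6.9 replicate 6) and 0 for cultured against fresh cells. It gave 2 to 14 (fresh), 56 to 421 (pH 7.4) and 737 to 1713 (pH 6.9) for odd against even sets, 473 to 1336 for pH (odd-numbered mice) and 163 to 898 (even-numbered mice), and 1368 to 2016 for their difference. The second index gave 0 to 89, 702 against 705 1 to 43, 701 against 708 1 to 4 and 706 against 707 0. The pooled log2 fold change of pH ran from -0.58 to 0.10 for Fstl3, from -0.12 to 0.69 for Htra3, from -0.90 to 0.32 for Npy and from -0.017 to 0.66 for Rgs12. At pH 6.9 against fresh it ran from -2.81 to 0.10 for Bcat1 and from -0.093 to 0.81 for Wdfy1, and at pH 7.4 against fresh from -0.087 to 1.21 for Bcat1. None of these pooled values was called. Depth limits levels below about 1 CPM, where a library of these totals holds only a few counts.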
